A study of Homo sapiens with 16 samples.

Results

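The clustered protocadherin genes were followed in a human melanoma line, UACC62P, and in its vemurafenib-resistant derivative, UACC62R, during exposure to CCG-222740. The members are the genes of the alpha, beta and gamma clusters on chromosome 5 whose symbol carries a member number. They were kept when at least 20 reads were counted for them over the libraries. Of 59 such symbols in the table of gene names, 57 had an ID among the 63677 gene IDs counted, and 53 of these passed, namely 15 alpha, 17 beta and 21 gamma members. Of the members, 3 beta genes are pseudogenes (PCDHB17P, PCDHB18P and PCDHB19P). The reads that set the threshold are a description only: PCDHGA11 with 27 and PCDHGB7 with 47 reads lay just inside it, and PCDHGB8P with 13, PCDHB1 with 3 and PCDHA14 with 0 reads lay outside. The ID matched to PCDHB16 also had 0 reads, but the names come from another annotation than the counts, so its reads may stand under another ID and no level is given for it.

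UACC62R was selected from UACC62P cells in 2 uM vemurafenib, a BRAF inhibitor, over 2 months, and per the labels of the 0 h libraries it was then kept in 2 uM vemurafenib. CCG-222740 inhibits transcription driven by the MRTF and SRF factors. The groups were UACC62R after 2, 6 and 24 h in 10 uM CCG-222740 and UACC62R at 0 h with no CCG-222740, and UACC62P after 2, 6 and 24 h in 10 uM CCG-222740 and UACC62P at 0 h with neither agent. Each group had 2 poly(A) RNA libraries, except that UACC62P at 2 h is represented by replicate 2 alone, because replicate 1 of that group had the profile of UACC62R and was left out. The sources used here do not say whether the treated UACC62R cultures also held vemurafenib, vehicle-treated libraries were not analysed here, and the 0 h libraries carry another growth protocol and other label text than the treated ones. Treatment and any difference in handling between 0 h and the later times therefore cannot be told apart. The labels do not tell whether the 2 libraries of a group are separate cultures; the tests rest on the spread between them, which may be technical. In bulk RNA, fewer cells that use a gene and less RNA per cell cannot be told apart.

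The 15 libraries held 25932053 to 33342482 reads in genes. The summed level of 7 melanocyte markers was 73.2 to 83.6 CPM (reads scaled to a common library size) in UACC62R libraries and 1497 to 1847 CPM in UACC62P libraries, and that of 4 fibroblast markers was 60.5 to 81.4 CPM in UACC62R and 26.5 to 31.8 CPM in UACC62P. LUM and PDGFRB carried the fibroblast difference, while the means of PDGFRA (3.44 CPM in UACC62R, 5.18 CPM in UACC62P) and DCN (0.41 CPM in UACC62R, 0.585 CPM in UACC62P) lay the other way; at 0 h 2 of these 4 were called higher and 1 lower. Markers of neurons, the cells best known for these genes, summed to 26.7 to 35.9 CPM in UACC62R and 93.1 to 107 CPM in UACC62P, with 1 of 9 at 0 reads in each line. MAP2 carried most of that difference, with means of 8.68 CPM in UACC62R and 86.4 CPM in UACC62P. TUBB3 (3.23 CPM in UACC62R, 4.51 CPM in UACC62P) lay the same way without overlap, and SYP (1.55 and 1.69 CPM) with overlap. SNAP25 (15.4 CPM in UACC62R, 6.34 CPM in UACC62P) and RBFOX3 (0.819 CPM in UACC62R, 0.131 CPM in UACC62P) lay the other way. Of the 6 tested at 0 h, 2 were called higher and 1 lower, with a median log2 fold change of 0.09. Epithelial markers summed to at most 0.305 CPM, endothelial markers to at most 1.66 CPM and blood markers to at most 1.11 CPM. The part of any of these markers in the protocadherin values was not tested.

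Clustered protocadherins are cadherin-type adhesion proteins that bind the same isoform on another cell. In neurons each cell uses a few isoforms, which lets its branches recognise each other as self. Each alpha and gamma member has a first exon and a promoter of its own, spliced to constant exons that encode a cytoplasmic tail common to the whole cluster, whereas beta members are mostly single-exon genes without that tail. The C-type members at the end of the alpha cluster (PCDHAC1 and PCDHAC2) and of the gamma cluster (PCDHGC3, PCDHGC4 and PCDHGC5) are used by most neurons, while the other promoters are chosen at random by looping to a distant enhancer through CTCF and cohesin. Most promoters carry a conserved sequence element around a CGCT core. Reads in the constant exons fit every member of the cluster, so a member's count should rest on exon sequence of its own. The counting settings that decide this are not given. In an annotation of another build than the counts, own sequence made up 50.5% of the exon length of PCDHA7, 59.8% of that of PCDHGC3 and 100% of that of PCDHB3.

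The conserved element was searched in the RefSeq promoters of the members (GRCh38.p14, 250 bases before to 50 bases after the start of each gene). Of the 53 members, 44 had a promoter entry. The letters sought were TGTCGCT for alpha, GGTGGCGCT for beta and GNCGCTGT for gamma members, on both strands and chosen after the sequences had been read; the alpha and gamma letters overlap where TGTCGCT is followed by GT. TGTCGCT was found in 10 of 13 alpha promoters (76.9%) and 2.15% of 27303 genes with a promoter entry, GGTGGCGCT in 12 of 12 beta promoters (100%) and 0.619% of all, and GNCGCTGT in 16 of 19 gamma promoters (84.2%) and 5.28% of all. The CGCT core alone was in 71.9% of all promoters. The core lay at a median of 51 bases before the start in alpha, 61 in beta and 53 in gamma members. No match was found for PCDHA9, PCDHAC1, PCDHAC2, PCDHGB3, PCDHGB7 and PCDHGA11. The element follows for members on which the results turn, as 50 bases on the plus strand of chromosome 5 read 5′ to 3′, with the cluster's letters in capitals. The first alpha sequences belong to the member that fell most in CCG-222740 (PCDHA7), another that fell (PCDHA11) and one not called in it without a replicate block (PCDHA4); PCDHA1, PCDHB14 and PCDHGB6 differed most between the lines among the members of their clusters called at 0 h.
PCDHA7 (chr5:140834162-140834211): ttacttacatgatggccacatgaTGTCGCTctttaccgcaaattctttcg
PCDHA11 (chr5:140868873-140868922): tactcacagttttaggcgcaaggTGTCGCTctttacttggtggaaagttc
PCDHA4 (chr5:140806969-140807018): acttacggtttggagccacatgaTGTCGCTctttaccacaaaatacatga
PCDHA1 (chr5:140786076-140786125): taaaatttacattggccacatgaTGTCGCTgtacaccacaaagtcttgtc
PCDHB3 (chr5:141100383-141100432): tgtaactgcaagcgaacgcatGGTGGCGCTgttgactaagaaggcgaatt
PCDHB15 (chr5:141245304-141245353): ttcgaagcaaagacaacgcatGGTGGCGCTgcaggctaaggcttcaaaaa
PCDHB2 (chr5:141094534-141094583): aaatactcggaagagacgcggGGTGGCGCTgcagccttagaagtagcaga
PCDHB14 (chr5:141223253-141223302): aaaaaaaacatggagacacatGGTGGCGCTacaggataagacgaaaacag
PCDHGA7 (chr5:141382639-141382688): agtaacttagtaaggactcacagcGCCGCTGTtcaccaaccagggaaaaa
PCDHGB6 (chr5:141407914-141407963): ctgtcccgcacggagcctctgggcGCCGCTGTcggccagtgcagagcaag
PCDHGC3 (chr5:141475870-141475919): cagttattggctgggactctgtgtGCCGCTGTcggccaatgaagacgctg
The longest run around TGTCGCT that PCDHA4, PCDHA7 and PCDHA11 share is TGTCGCTCTTTAC, found in the promoters of 3 of 27303 genes. It was derived from these 3 promoters, so its presence in them was fixed in advance and its rarity is no separate result. These letters are a description and show nothing about the binding of a factor.

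PCDHGC3 was by far the most abundant member in both lines. It averaged 216 CPM over the 8 UACC62R libraries and 188 CPM over the 7 UACC62P libraries, and held 28.2 to 41.4% of the CPM of all members in a library. Per kilobase of its own exon its level was 66.4 CPM in UACC62R and 57.7 CPM in UACC62P. PCDHGC3 is a C-type member that is also known outside the nervous system. A mean of at least 1 CPM was reached by 43 of 53 members in UACC62R and 40 in UACC62P, at least 10 CPM by 12 members in UACC62R and 10 in UACC62P, and at least 100 CPM by PCDHGC3 alone in each.

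The beta members came next. Per kilobase of own exon, PCDHB5 stood at 19.3 CPM, PCDHB6 at 12.6 CPM and PCDHB2 at 10.7 CPM in UACC62R, and PCDHB6 at 14.8 CPM, PCDHB5 at 13.8 CPM and the pseudogene PCDHB17P at 5.2 CPM led in UACC62P. In the alpha cluster PCDHA7 led both lines on that scale when all times were averaged, with 5.13 CPM per kilobase in UACC62R and 3.78 in UACC62P. PCDHAC2 with 2.49 and PCDHA11 with 2.46 followed in UACC62R, whereas PCDHA1 with 3.0 and PCDHA13 with 2.76 followed in UACC62P. The alpha order changed with time: at 24 h PCDHAC2 led in UACC62R (3.44 CPM per kilobase, PCDHA7 2.49), and PCDHA1 led in UACC62P at 6 h (3.03, PCDHA7 2.33) and at 24 h (3.57, PCDHA7 2.26). Behind PCDHGC3 the gamma order began with PCDHGA3 and PCDHGB1 in both lines, at 8.02 and 3.43 CPM per kilobase in UACC62R and 4.44 and 3.80 in UACC62P. At the other end, PCDHA9, PCDHB19P, PCDHGA8, PCDHGA9, PCDHGA10, PCDHGB7, PCDHGA11 and PCDHGC4 stayed under 1 CPM in all 15 libraries.

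Summed levels differed by cluster. The 17 beta members together had 247 to 294 CPM in UACC62R libraries and 181 to 232 CPM in UACC62P libraries, without overlap. The 15 alpha members summed to 72.1 to 89.8 CPM in UACC62R and 65.2 to 82.1 CPM in UACC62P, which overlapped. The 21 gamma members summed to 231 to 334 CPM in UACC62R and 181 to 291 CPM in UACC62P, which overlapped. Without the dominant PCDHGC3, the other 20 gamma members summed to 55.8 to 72.6 CPM in UACC62R and 43.3 to 55.1 CPM in UACC62P, without overlap.

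**Figure D1:**
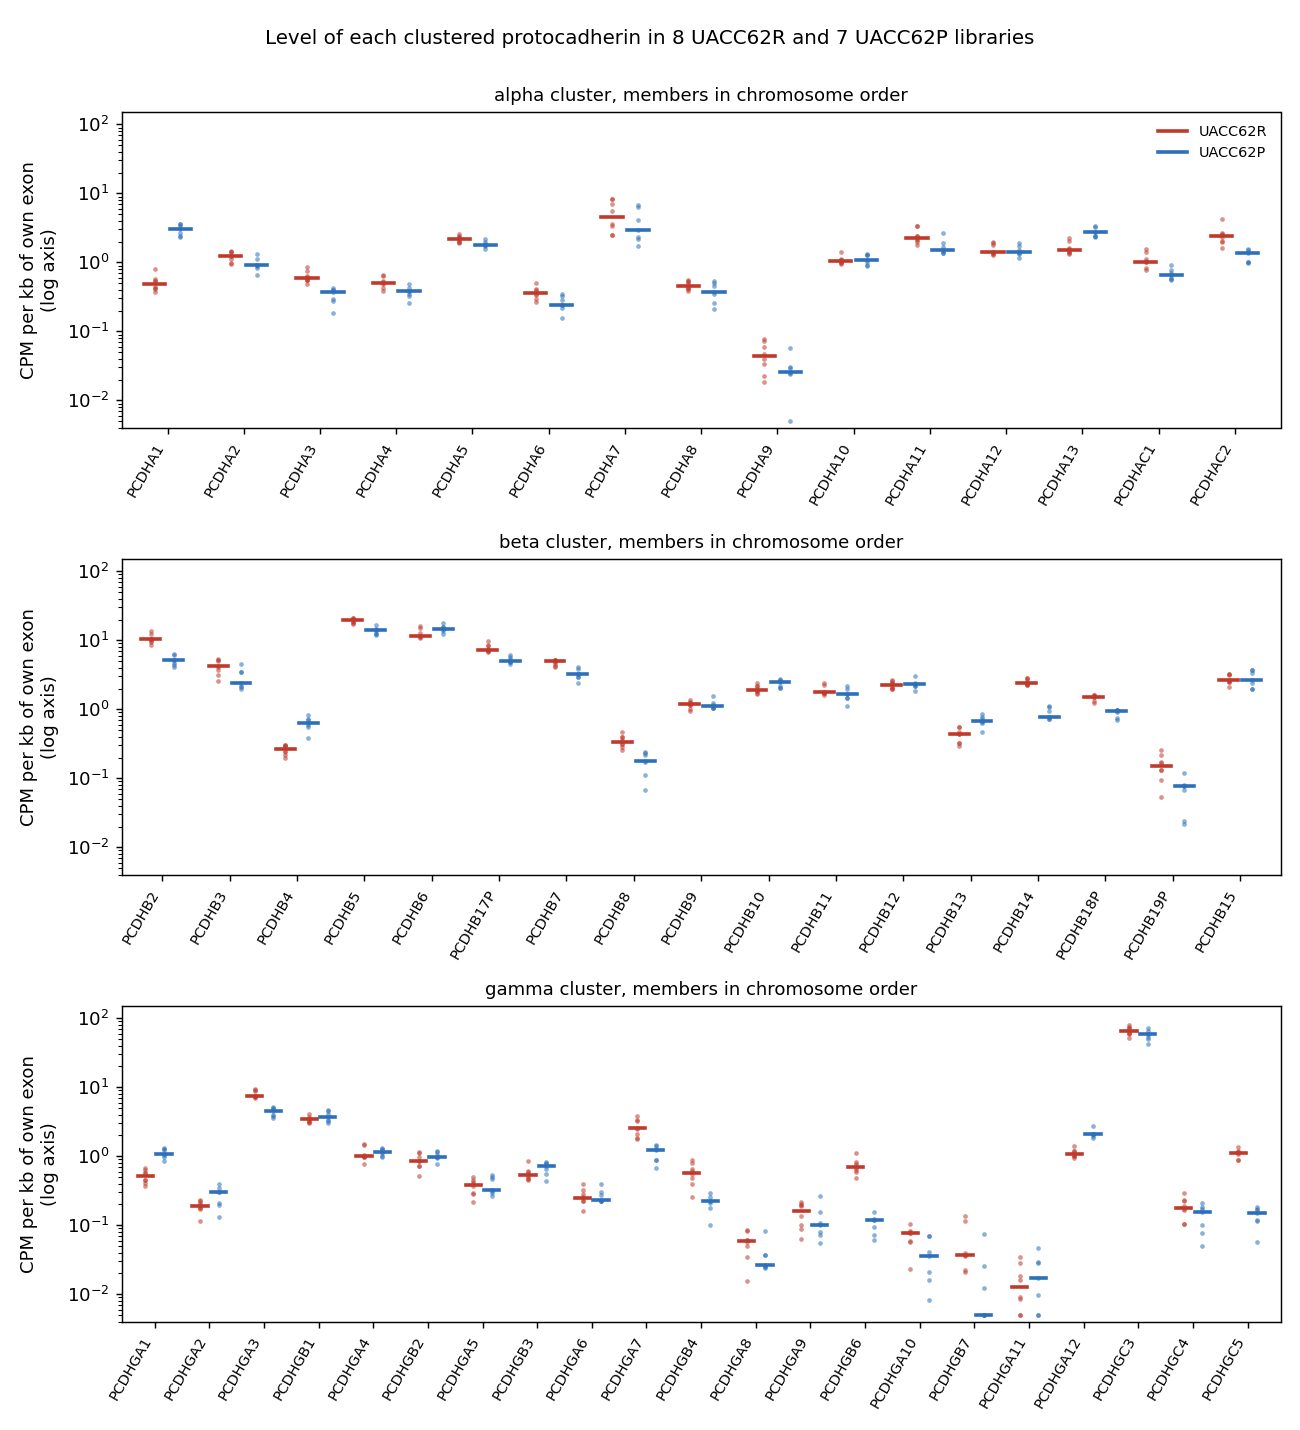
Level of each member in CPM per kilobase of its own exon (vertical log axis) in 8 UACC62R libraries (red) and 7 UACC62P libraries (blue), for the alpha, beta and gamma clusters in chromosome order; points are libraries, bars are medians over all times, and the lowest values, zeros included, are drawn at the foot of the axis. PCDHGC3 stands above all other members in both lines, and PCDHGB6 and PCDHGC5 are separated between the lines.

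Some members differed in level between the lines: PCDHGB6, PCDHGC5 and PCDHB14 were several-fold higher in UACC62R and PCDHA1 several-fold lower. In edgeR's quasi-likelihood test at 0 h, 16 of the 52 members tested were higher and 8 lower in UACC62R than in UACC62P at an adjusted p under 0.05, which is 46.2% of the members against 53.9% of all 20280 genes tested (27.8% higher, 26.1% lower). The shares are near each other, so the count of calls is no result about the members. The median log2 fold change was 0.34 over the members and 0.02 over all genes. By cluster, 4 alpha, 6 beta and 6 gamma members were higher and 2 alpha, 4 beta and 2 gamma members lower.

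Among those higher in UACC62R, PCDHGB6 had 5.18 and 3.82 CPM at 0 h, against 0.554 and 0.540 CPM in UACC62P, a log2 fold change of 3.03 ± 0.31 (SE; adjusted p = 1.16e-06, edgeR). PCDHGC5, a C-type member, had 3.20 and 3.32 CPM in UACC62R and 0.485 and 0.324 CPM in UACC62P (log2 fold change 2.99 ± 0.32). The libraries of the 2 lines were far apart for both genes. PCDHB14 had 10.7 and 12.5 CPM in UACC62R against 3.32 and 3.60 CPM in UACC62P (1.75 ± 0.15 on the log2 scale, adjusted p = 2.47e-07). PCDHGB4 had 2.14 and 1.94 CPM in UACC62R against 0.554 and 0.721 CPM in UACC62P (log2 fold change 1.67 ± 0.37). PCDHGA7 had 12.6 and 11 CPM in UACC62R against 4.61 and 4.72 CPM in UACC62P (log2 fold change 1.34 ± 0.19). The more abundant PCDHB2 (35.0 and 38.8 CPM in UACC62R, 21.3 and 18.3 CPM in UACC62P), PCDHGA3 (20.2 and 19.3 CPM in UACC62R, 12.4 and 10.3 CPM in UACC62P) and PCDHB5 (59.7 and 66.0 CPM in UACC62R, 47.4 and 40.4 CPM in UACC62P) differed by less, with log2 fold changes of 0.90 ± 0.11, 0.80 ± 0.15 and 0.52 ± 0.12.

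PCDHA1 was the member most reduced in the resistant line. It had 1.45 and 1.03 CPM in UACC62R and 8.31 and 6.67 CPM in UACC62P at 0 h, a log2 fold change of -2.59 ± 0.24 (adjusted p = 4.18e-07). PCDHGA1, the first member of the gamma cluster, had 2.57 and 1.69 CPM in UACC62R and 5.33 and 4.29 CPM in UACC62P (-1.18 ± 0.25). PCDHB4 had 0.956 and 0.751 CPM in UACC62R and 2.25 and 1.48 CPM in UACC62P (-1.13 ± 0.30). PCDHA13 had 3.33 and 3.51 CPM in UACC62R and 5.85 and 6.05 CPM in UACC62P (-0.80 ± 0.19). All 4 were low in both UACC62R libraries relative to both UACC62P libraries.

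PCDHGC3 and PCDHA7, which led the gamma and alpha clusters over all times, differed little at 0 h. The leading beta members did differ there, PCDHB2 and PCDHB5 being higher in UACC62R, as given above, and PCDHB6 lower. PCDHB6 had 38.0 and 35.6 CPM in UACC62R and 50.1 and 40.1 CPM in UACC62P at 0 h. Its log2 fold change was -0.12 without UACC62P 0 h replicate 1. PCDHGC3 had 262 and 234 CPM in UACC62R and 236 and 215 CPM in UACC62P at 0 h and was not called at any of the 3 times without a replicate block; with the block its log2 fold change at 6 h was 0.24 ± 0.09 (adjusted p = 0.0296). PCDHA7 had 24.6 and 24.1 CPM in UACC62R and 19.7 and 18.6 CPM in UACC62P at 0 h and was not called there. At 6 h PCDHA7 was called higher in UACC62R (0.56 ± 0.18, adjusted p = 0.0202), but not without UACC62P 6 h replicate 2 (0.25, adjusted p = 0.23) or UACC62R 6 h replicate 2 (0.51, adjusted p = 0.0864).

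The lines were compared again at the treated times. At 6 h, 18 members were higher and 8 lower (50% of members, against 51.4% of all genes, 26.5% higher and 25.0% lower). At 24 h, 17 were higher and 5 lower (42.3% of members, against 55.2% of all genes, 28.1% higher and 27.0% lower). Called higher in UACC62R at all 3 times were 13 members (PCDHA11, PCDHAC2, PCDHB2, PCDHB5, PCDHB7, PCDHB14, PCDHB17P, PCDHB18P, PCDHGA3, PCDHGA7, PCDHGB4, PCDHGB6 and PCDHGC5), and called lower at all 3 were 5 (PCDHA1, PCDHB4, PCDHB13, PCDHGA1 and PCDHGA12). Over all genes tested, 20.9% were called higher and 20.2% lower at all 3 times. In all, 31 of the 52 members were called at 1 time or more (66.9% of all genes), 21 at no time, and 0 in opposite directions at different times (0.123% of all genes). The 18 higher at 6 h and the 31 include PCDHGB7, which rests on the very low counts given below. Over all times the UACC62R and UACC62P libraries did not overlap for 18 members, and for 43.5% of all genes tested.

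Each call at 0 h was repeated with every library left out in turn, and 12 of the 24 were kept throughout (PCDHA1, PCDHA13, PCDHB2, PCDHB5, PCDHB14, PCDHB17P, PCDHGA1, PCDHGA3, PCDHGA7, PCDHGB4, PCDHGB6 and PCDHGC5). The other calls were lost without 1 library or another; for example, the log2 fold change of PCDHB4 was -0.79 without UACC62P 0 h replicate 1, with an adjusted p of 0.0751. At 6 h, 14 of 26 calls were kept, and 17 members were called without UACC62P 6 h replicate 2. At 24 h, 15 of 22 were kept. With the left-out library included, 14 members were called at 0 h. With the replicate block, PCDHB3 (0.37 ± 0.15, adjusted p = 0.0367) and PCDHA5 (0.30 ± 0.13, adjusted p = 0.0479) were also called at 0 h, PCDHB8 (1.23 ± 0.50, adjusted p = 0.0462) at 6 h, and PCDHB3 (0.39 ± 0.16, adjusted p = 0.0465), PCDHA13 (-0.42 ± 0.17, adjusted p = 0.0361) and PCDHGB7 at 24 h.

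PCDHGB7 was called higher in UACC62R at 6 h on very low counts, with 12 and 3 reads in the UACC62R libraries and 0 in both UACC62P libraries, at least 4.89-fold higher at a floor of 3 counts over the group. Its highest counts were 12 reads in UACC62R 6 h replicate 1 and 10 in UACC62R 24 h replicate 1. Because UACC62P at 2 h has 1 library, the filter could pass a gene on 1 library. PCDHGB7 thus entered the test through the line in which it was called higher, and its call is no separate result. The call was lost without UACC62P 6 h replicate 1 (adjusted p = 0.0686) or replicate 2 (adjusted p = 0.0541). At 0 h it had 3 and 2 reads in UACC62R and 6 and 2 reads in UACC62P (-0.78 ± 1.11 on the log2 scale, not called). PCDHB8 and PCDHB13, beta members with similar sequence, may lose reads that align to both. Exons on the opposite strand overlap 18 members, over 32 to 864 bases. Among them are PCDHB2 with 620, PCDHA5 with 590, PCDHB5 with 501, PCDHA10 with 447, PCDHA13 with 435, PCDHA1 with 398, PCDHB3 with 356, PCDHAC2 with 256, PCDHB6 with 59 and PCDHB15 with 32 bases; with no stated strand setting, reads from those partners cannot be told apart.

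**Figure D2:**
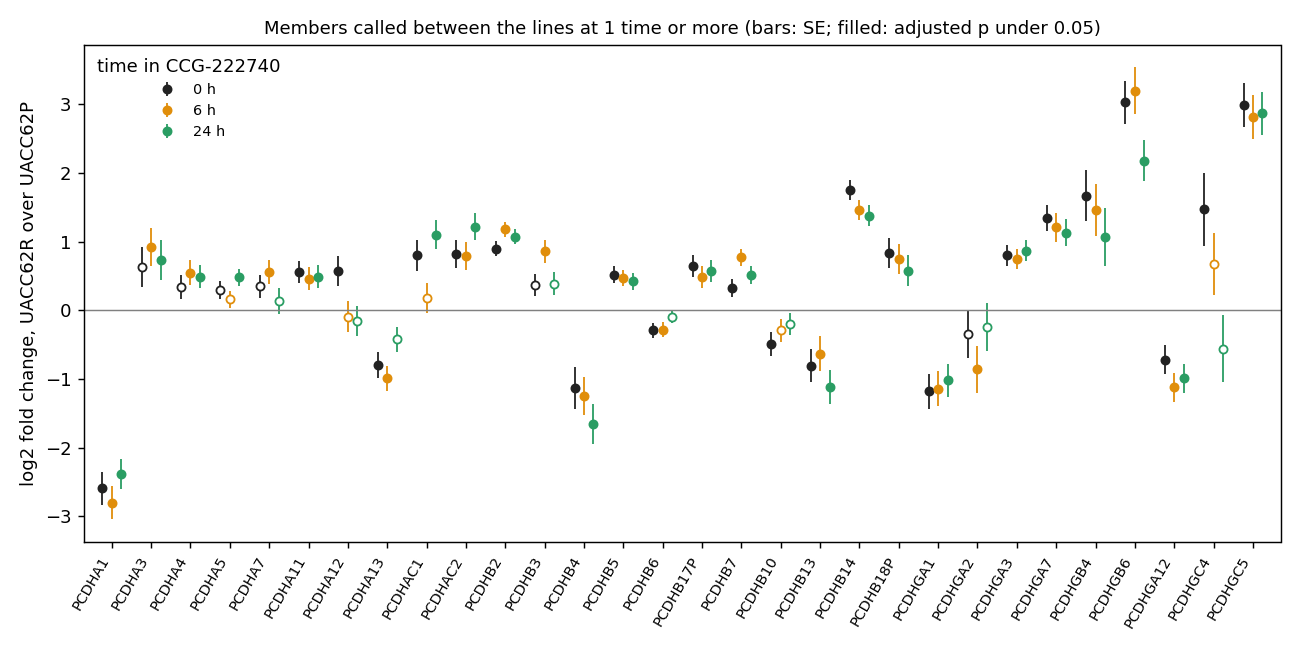
The log2 fold change of UACC62R over UACC62P (vertical axis) at 0 h (black), 6 h (orange) and 24 h (green) for 30 members called at 1 time or more, PCDHGB7 left out; bars are SE, and filled points have an adjusted p under 0.05. PCDHGB6 and PCDHGC5 lie highest and PCDHA1 lowest at all 3 times.

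In CCG-222740, PCDHA7 fell in both lines and further than any other called member. In UACC62R it had 24.6 and 24.1 CPM at 0 h, 16.2 and 20.4 CPM at 2 h, 9.77 and 10.5 CPM at 6 h, and 7.27 and 7.25 CPM at 24 h. In UACC62P it had 19.7 and 18.6 CPM at 0 h, 12.2 CPM in the single 2 h library, 8.52 and 5.10 CPM at 6 h, and 6.48 and 6.75 CPM at 24 h. From 6 h on, every treated library lay below every 0 h library of its line. The log2 fold change against 0 h was -1.27 ± 0.17 at 6 h and -1.74 ± 0.18 at 24 h in UACC62R (adjusted p = 0.00231 and 2.83e-05, edgeR), and -1.48 ± 0.18 at 6 h and -1.53 ± 0.18 at 24 h in UACC62P (adjusted p = 0.000959 and 0.000301). At 2 h it was -0.41 ± 0.17 in UACC62R and -0.65 ± 0.22 in UACC62P, neither past the threshold.

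All 4 calls of PCDHA7 were kept with each of the 15 libraries left out in turn. The leave-one-out values in UACC62R were -1.32 to -1.23 at 6 h and -1.76 to -1.73 at 24 h. Those in UACC62P were -1.91 to -1.17 at 6 h and -1.57 to -1.49 at 24 h. The 6 h and 24 h comparisons share the 0 h libraries. In the comparison of 24 h with 6 h, which does not contrast them, edgeR called PCDHA7 in neither line. Its leave-one-out log2 fold changes there were -0.52 to -0.43 in UACC62R and -0.36 to 0.38 in UACC62P. The difference of response between the lines was 0.22 ± 0.25 at 6 h and -0.21 ± 0.25 at 24 h on the log2 scale, neither called.

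The weight of PCDHA7 within the alpha cluster shrank in both lines. Its share of the CPM of the alpha members in UACC62R was 27.4 and 27.8% before treatment, 21.3 and 25.0% after 2 h, 13.6 and 14.4% after 6 h, and 8.57 and 9.54% after 24 h. In UACC62P the share was 24.0 and 26.2% before treatment, 18.7% after 2 h, 11.3 and 7.81% after 6 h, and 9.16 and 9.43% after 24 h. The summed CPM of the 15 alpha members was 88.3 ± 2.14 before treatment, 78.6 ± 3.79 after 2 h, 72.3 ± 0.337 after 6 h and 80.5 ± 6.23 after 24 h in UACC62R (SD, n = 2 each). The alpha members PCDHA5 and PCDHA10 had other courses: PCDHA5 had 8.37 and 8.98 CPM at 0 h, 8.45 and 8.01 CPM at 2 h, 9.52 and 10.0 CPM at 6 h and 10.4 and 10.8 CPM at 24 h in UACC62R, and PCDHA10 had 10.9 and 10.2 CPM at 0 h, 10.3 and 10.9 CPM at 2 h, 9.52 and 9.78 CPM at 6 h and 14.1 and 11.3 CPM at 24 h. Neither was called against 0 h in either line.

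At 2 h, 0 of 52 members were called in either line (background 0.0740% of genes in UACC62R and 0.0444% in UACC62P). At an unadjusted p under 0.05 there were 2 members in UACC62R and 4 in UACC62P, and the DESeq2 Wald test called 0 in both.

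At 6 h, 2 members were called in each line, all lower. In UACC62R these were PCDHA7 and PCDHGA7 (3.85% of members, against 0.666% of all genes). In UACC62P they were PCDHA7 and PCDHB3 (3.85% of members, against 1.52% of all genes). PCDHGA7 had 12.6 and 11 CPM at 0 h, 10.7 and 8.49 CPM at 2 h, 5.99 and 5.89 CPM at 6 h and 8.22 and 6.96 CPM at 24 h in UACC62R, with a log2 fold change of -0.99 ± 0.18 at 6 h (adjusted p = 0.023). In UACC62P it had 4.61 and 4.72 CPM at 0 h, 4.18 CPM at 2 h, 2.88 and 2.22 CPM at 6 h and 2.86 and 4.06 CPM at 24 h, with -0.86 ± 0.21 at 6 h (adjusted p = 0.0575). With the replicate block, 4 members were called in UACC62R at 6 h (7.69%, against 2.79% of all genes), PCDHA11 at -0.65 ± 0.15 (adjusted p = 0.0182) and PCDHGC3 at -0.34 ± 0.09 (adjusted p = 0.0479) being added. In UACC62P the block gave 7 (13.5%, against 6.98% of all genes), adding PCDHA11, PCDHB7, PCDHB15, PCDHGA7 and PCDHGC3, all lower.

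At 24 h, members were called in both directions in UACC62R. There, 4 members were higher and 6 lower than at 0 h (19.2% of members, against 14.7% of all genes, 6.48% higher and 8.23% lower). In UACC62P, 0 were higher and 4 lower (7.69% of members, against 3.85% of all genes). The median log2 fold change over the members was 0.15 in UACC62R and 0.19 in UACC62P, against 0.01 and 0.00 over all genes. Lower in both lines were PCDHA7, PCDHA11 and PCDHB3.

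PCDHA11 had 11.2 and 11.5 CPM at 0 h, 8.11 and 8.23 CPM at 2 h, 7.18 and 7.28 CPM at 6 h and 6.72 and 6.03 CPM at 24 h in UACC62R, with no overlap between 0 h and any later time. In UACC62P it had 9.04 and 6.38 CPM at 0 h, 5.09 CPM at 2 h, 5.64 and 4.84 CPM at 6 h and 4.53 and 4.56 CPM at 24 h. The log2 fold change at 24 h was -0.83 ± 0.16 in UACC62R (adjusted p = 0.00324) and -0.76 ± 0.17 in UACC62P (adjusted p = 0.0228). The beta member PCDHB3 had 17.7 and 16.6 CPM at 0 h, 14 and 17.5 CPM at 2 h, 12.3 and 14.4 CPM at 6 h and 10.4 and 8.74 CPM at 24 h in UACC62R. In UACC62P it had 15.1 and 11.5 CPM at 0 h, 11.8 CPM at 2 h, 8.05 and 6.61 CPM at 6 h and 7.16 and 7.42 CPM at 24 h. Its log2 fold change at 24 h was -0.85 ± 0.16 in UACC62R (adjusted p = 0.00308) and -0.86 ± 0.17 in UACC62P (adjusted p = 0.0112), and in UACC62P it was -0.85 ± 0.17 at 6 h.

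PCDHB15 fell in UACC62P, to 7.26 and 8.87 CPM at 24 h, against 13.5 and 13.7 CPM at 0 h (-0.75 ± 0.16, adjusted p = 0.0211). In UACC62R it had 9.12 and 9.12 CPM at 24 h against 11.6 and 12.0 CPM at 0 h (-0.37 ± 0.16, adjusted p = 0.154), and the difference between the lines was not called (0.38 ± 0.23). In UACC62R the calls also included PCDHGA7 (-0.64 ± 0.18, adjusted p = 0.0288), PCDHGB4 and the abundant PCDHGC3. PCDHGB4 had 0.974 and 0.641 CPM at 24 h against 2.14 and 1.94 CPM at 0 h (-1.34 ± 0.35, adjusted p = 0.0193). PCDHGC3 had 201 and 169 CPM at 24 h against 262 and 234 CPM at 0 h in UACC62R (-0.42 ± 0.13, adjusted p = 0.0441), and 163 and 173 CPM at 24 h against 236 and 215 CPM at 0 h in UACC62P (-0.43 ± 0.13, adjusted p = 0.0924; with the replicate block -0.42 ± 0.09, adjusted p = 0.00521).

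**Figure D3:**
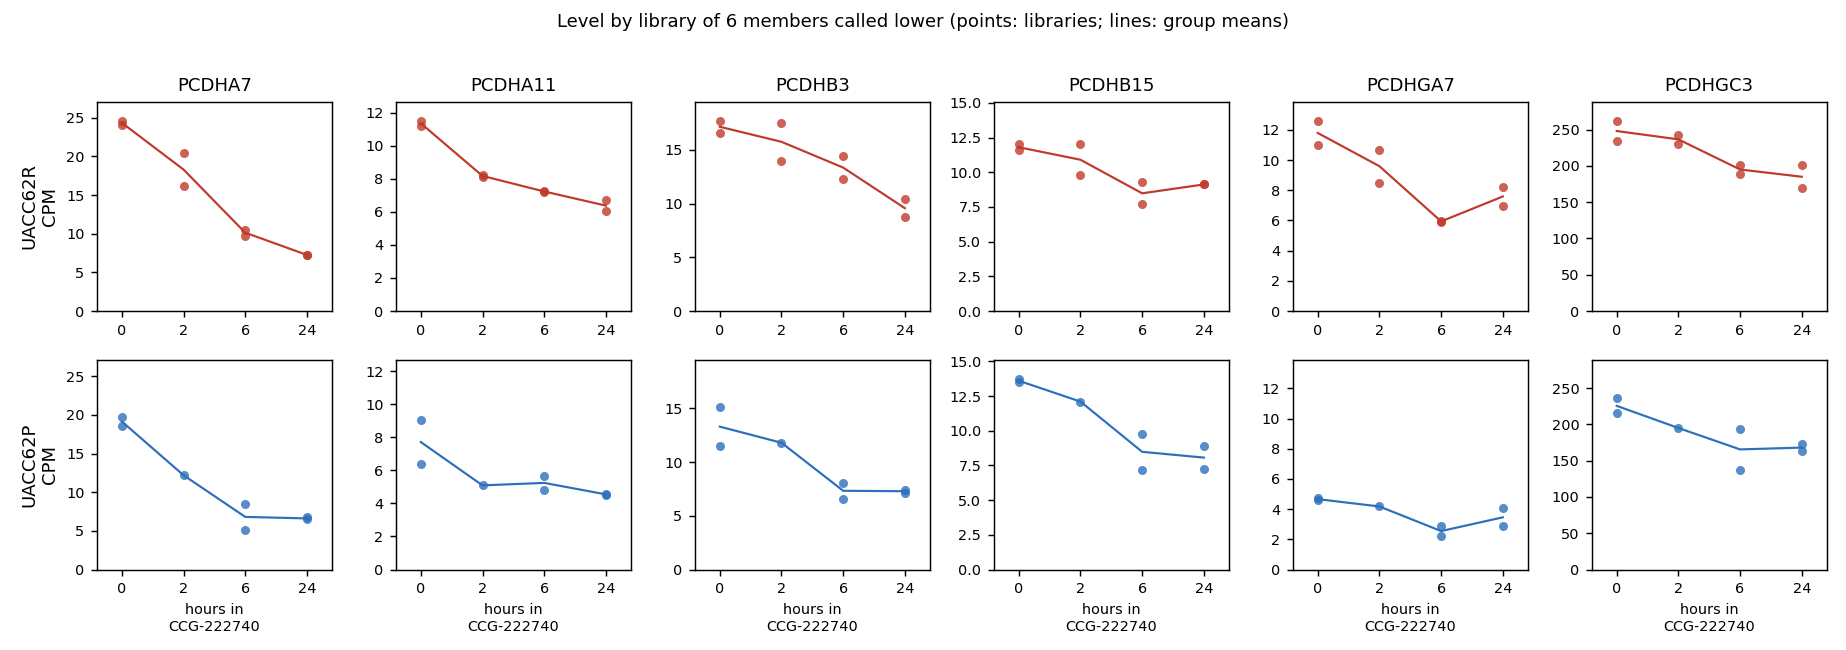
CPM of PCDHA7, PCDHA11, PCDHB3, PCDHB15, PCDHGA7 and PCDHGC3 in each library (points) and as group means (lines) at 0, 2, 6 and 24 h in CCG-222740, with UACC62R above and UACC62P below on the same vertical scale per gene. PCDHA7 ended at 7.27 and 7.25 CPM in UACC62R and at 6.48 and 6.75 CPM in UACC62P.

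Higher at 24 h in UACC62R were PCDHB2, PCDHB6, PCDHA13 and PCDHAC2. PCDHB2 had 51.6 and 55.9 CPM at 24 h against 35.0 and 38.8 CPM at 0 h (0.54 ± 0.11 on the log2 scale, adjusted p = 0.00428). PCDHB6 had 52.8 and 49.6 CPM at 24 h against 38.0 and 35.6 CPM at 0 h (0.48 ± 0.11, adjusted p = 0.00751). PCDHAC2, a C-type member needed in mice for the even spread of serotonergic axons, had 14.5 and 9.21 CPM at 24 h against 6.89 and 5.51 CPM at 0 h (0.93 ± 0.20, adjusted p = 0.00539), with the 24 h libraries far apart. PCDHA13 had 5.0 and 5.68 CPM at 24 h against 3.33 and 3.51 CPM at 0 h (0.64 ± 0.19, adjusted p = 0.0312). The replicate block added PCDHB10 (0.44 ± 0.15, adjusted p = 0.0437), PCDHA4 (0.49 ± 0.15, adjusted p = 0.0264) and PCDHGA3 (0.34 ± 0.11, adjusted p = 0.0242), all higher.

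In UACC62P, PCDHB2 had 26 and 25.2 CPM at 24 h against 21.3 and 18.3 CPM at 0 h (0.37 ± 0.11, adjusted p = 0.0931), and PCDHAC2 had 5.42 and 4.74 CPM at 24 h against 3.50 and 3.53 CPM at 0 h (0.53 ± 0.22, adjusted p = 0.206). With the replicate block, 9 members were called in UACC62P at 24 h (17.3%, against 12.1% of all genes). Of these, PCDHB2, PCDHB6 and PCDHB14 were higher, and PCDHB7 and PCDHGC3 joined the 4 lower ones.

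Between 6 and 24 h, PCDHB6 (0.39 ± 0.10, adjusted p = 0.0255) and PCDHAC1 (0.69 ± 0.21, adjusted p = 0.0433) rose in UACC62R (3.85% of members, against 12.6% of all genes). PCDHAC1, the other alpha C-type member, had 4.52 and 4.23 CPM at 0 h, 3.19 and 4.15 CPM at 2 h, 3.33 and 4.13 CPM at 6 h and 6.36 and 5.71 CPM at 24 h. With the block, 7 members were called (13.5%, against 22.1% of all genes), the added ones being PCDHB2, PCDHB11, PCDHA10 and PCDHGA3, all higher, and PCDHB3, lower. In UACC62P 0 members were called between these times (background 0.735%; 3 at an unadjusted p under 0.05; 1 by DESeq2), and with the block PCDHB2 was (1.92%, against 5.05% of all genes).

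**Figure D4:**
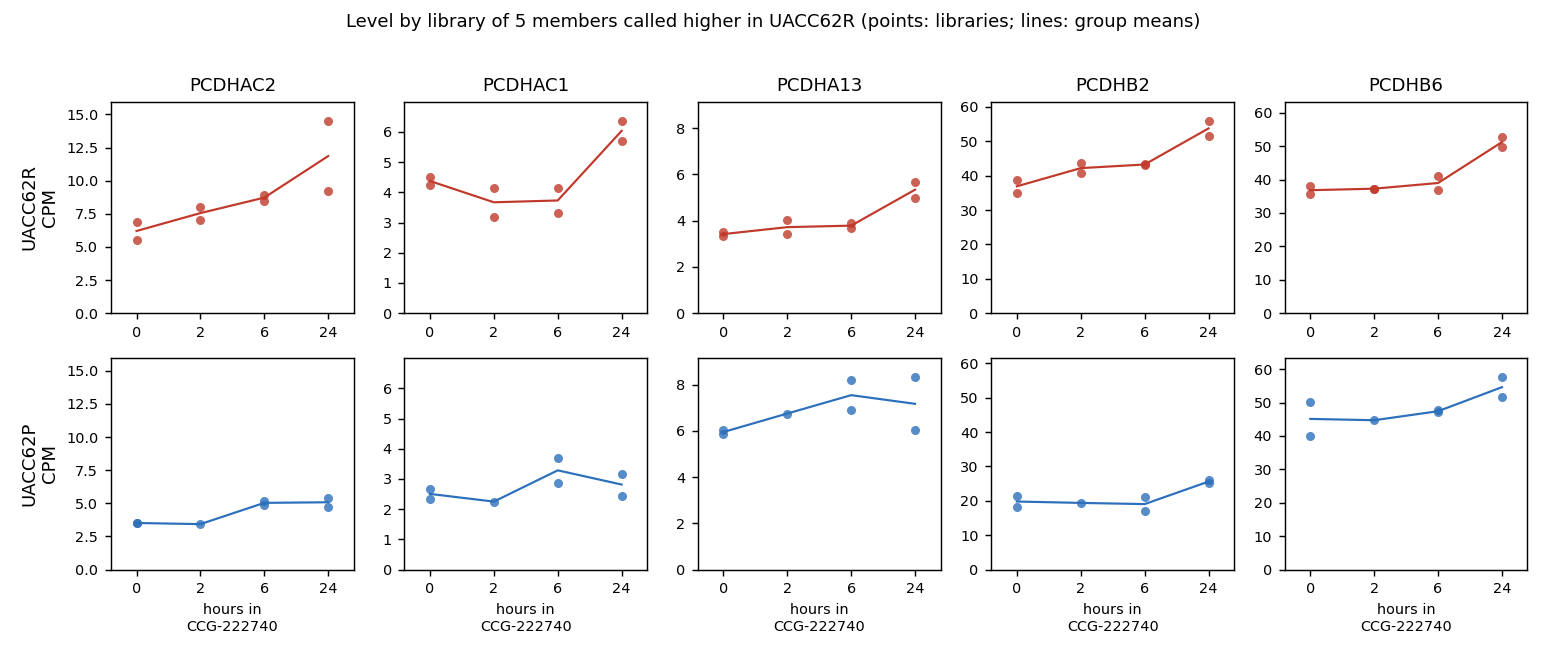
CPM of PCDHAC2, PCDHAC1, PCDHA13, PCDHB2 and PCDHB6 in each library (points) and as group means (lines) at 0, 2, 6 and 24 h in CCG-222740, with UACC62R above and UACC62P below. The 2 UACC62R libraries at 24 h lie above both 0 h libraries for each of these genes.

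No difference of response between the lines was called for a member: 0 of 52 at 6 h and at 24 h (background 0.00493% and 0.562% of genes), with 4 and 3 at an unadjusted p under 0.05, and 0 at both times by DESeq2. A miss of the threshold does not show that the lines responded alike.

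Of the 10 calls in UACC62R at 24 h, PCDHA7, PCDHA11, PCDHB2 and PCDHB3 were kept with each library left out, and the other 6 were lost without 1 library or another; without UACC62R 0 h replicate 2, 4 members were called, and without UACC62R 0 h replicate 1 or either UACC62R 24 h replicate, 6 were. For PCDHAC2 the value was 0.56 (adjusted p = 0.0987) without UACC62R 24 h replicate 1 and 0.78 (adjusted p = 0.0808) without UACC62R 0 h replicate 2. Between 6 and 24 h in UACC62R, 0 members were called without UACC62R 6 h replicate 2 or 24 h replicate 1. In UACC62P at 24 h PCDHA7 alone was called without replicate 1 of 0 h or without either 24 h replicate. At 6 h, PCDHB3 was lost in UACC62P without 0 h replicate 1 (-0.64, adjusted p = 0.169) or 6 h replicate 2 (-0.72, adjusted p = 0.252), 5 members were called there without 6 h replicate 1, and PCDHGA7 was lost in UACC62R without any 1 of its 0 h or 6 h libraries (-1.09 to -0.88). With the left-out library included, the spread estimate was larger (common dispersion 0.0622, against 0.00985 without it), and PCDHA7 in UACC62R at 24 h was the only call of a member against 0 h.

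**Figure D5:**
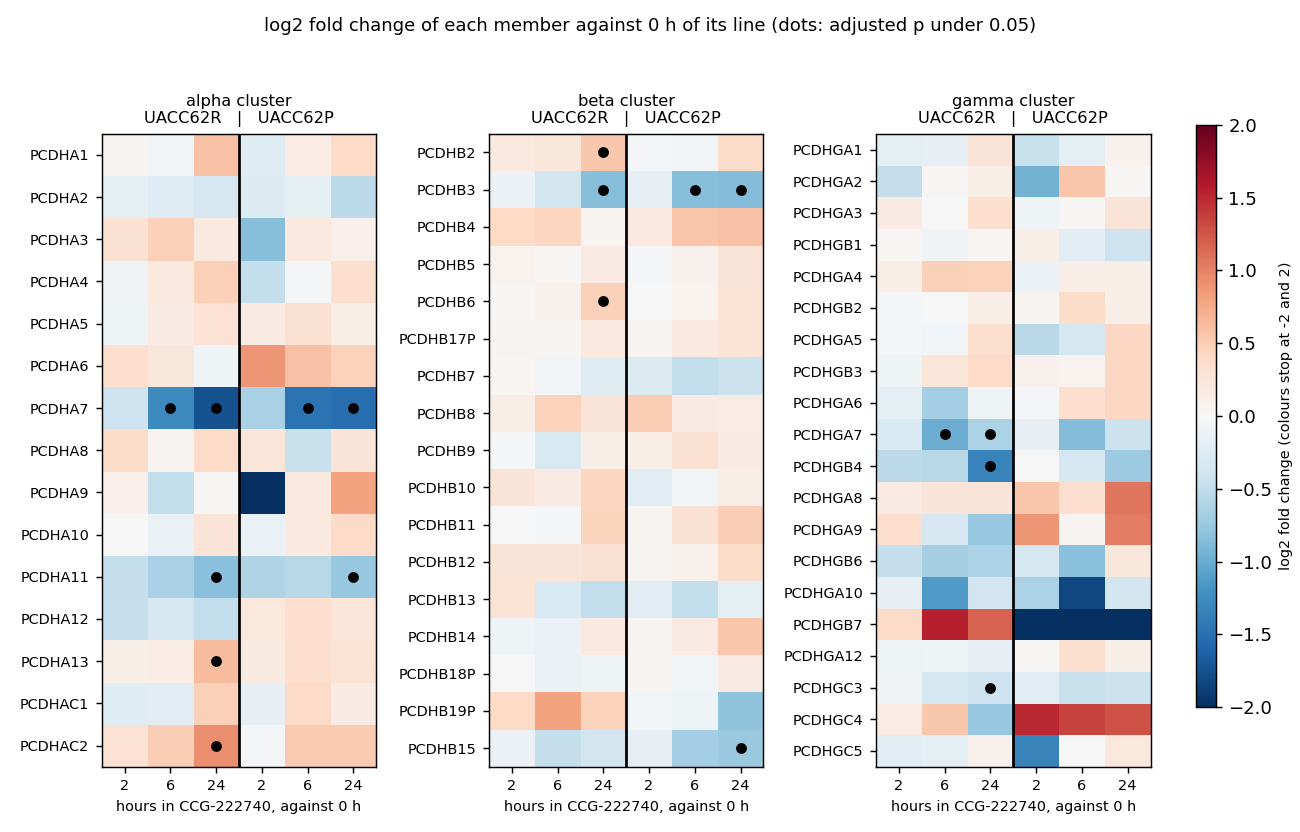
The log2 fold change against 0 h of the same line (colour, red higher and blue lower, stopped at -2 and 2) for each tested member at 2, 6 and 24 h in CCG-222740, with UACC62R left and UACC62P right of the line in each cluster; black dots have an adjusted p under 0.05. PCDHA7 is the only member with dots at 6 and 24 h in both lines, and PCDHA9, PCDHGB7 and PCDHGC4 rest on low counts.

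The genes of promoter choice and silencing were listed beside the members. The shares of each list called are to be read against those of all genes tested, which were 53.9% between the lines at 0 h and, for 24 h against 0 h, 14.7% in UACC62R and 3.85% in UACC62P. Of 13 tested genes for CTCF and cohesin, 2 were higher and 5 lower in UACC62R than in UACC62P at 0 h (53.8% called, the share of all genes), with a median log2 fold change of -0.18. CTCF itself, the factor that binds the conserved element, had 85.8 and 99.5 CPM in UACC62R and 110 and 109 CPM in UACC62P (-0.24 ± 0.09, adjusted p = 0.0376). RAD21, a core subunit of cohesin, had 236 and 275 CPM in UACC62R and 184 and 194 CPM in UACC62P (0.43 ± 0.10, adjusted p = 0.00264). The alternative cohesin subunits moved in opposite directions, STAG1 at 0.66 ± 0.13 and STAG2 at -0.84 ± 0.07. At 24 h in UACC62R, 0 were higher and 4 lower than at 0 h (30.8%), among them ESCO2, a cohesin acetyltransferase of S phase (-0.86 ± 0.20), and SMC1A (-0.52 ± 0.10), while CTCF at -0.24 ± 0.09 had an adjusted p of 0.0949. In UACC62P at 24 h ESCO2 alone was called (7.69% of the list; -0.79 ± 0.20).

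Of 18 tested genes for silencing and DNA methylation, 2 were higher and 9 lower in UACC62R at 0 h (61.1% called, median log2 fold change -0.34). SMCHD1, which keeps clustered protocadherin genes silent in mice, had 47.9 and 55.4 CPM in UACC62R and 38.0 and 37.9 CPM in UACC62P (0.45 ± 0.11, adjusted p = 0.0034). Lower were the DNA methyltransferases DNMT3A, with 12.7 and 9.92 CPM in UACC62R and 25.3 and 24.6 CPM in UACC62P (-1.14 ± 0.21), and DNMT3B, with 5.44 and 5.2 CPM in UACC62R and 10.1 and 11.2 CPM in UACC62P (-1.0 ± 0.15). TET3, which oxidises methylcytosine, was also lower (-1.51 ± 0.15). At 24 h in UACC62R, 5 of the 18 were lower than at 0 h and 0 higher (27.8%), with DNMT1 at -0.68 ± 0.09 and EZH2 at -0.69 ± 0.18; in UACC62P 0 were called.

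Among 16 tested binding partners and signalling genes, 6 were higher and 5 lower in UACC62R at 0 h (68.8% called, median log2 fold change 0.21). PTK2 and PTK2B, kinases that the alpha and gamma tails inhibit, were both higher: PTK2 had 142 and 138 CPM in UACC62R and 97.5 and 93.6 CPM in UACC62P (0.56 ± 0.07), and PTK2B had 9.46 and 9.55 CPM in UACC62R and 3.36 and 2.52 CPM in UACC62P (1.69 ± 0.17). BRK1, a subunit of the WAVE complex of actin nucleation, was higher (1.24 ± 0.09), and WASF3 of the same complex lower (-0.62 ± 0.12). NLGN1, a neuroligin that gamma protocadherins bind in mice, was lower (-3.31 ± 0.15). At 24 h in UACC62R, PTK2B was higher than at 0 h (0.54 ± 0.15) and 2 genes were lower (18.8% called), and in UACC62P 0 were called.

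Of 14 tested non-clustered protocadherins and related FAT and Dachsous cadherins, 9 were higher and 3 lower in UACC62R at 0 h (85.7% called, median log2 fold change 0.97). At 24 h against 0 h, 28.6% of these genes were called in UACC62R and 21.4% in UACC62P. PCDH1 and FAT1 were called higher in CCG-222740 in both lines at 24 h, FAT1 by 0.40 in UACC62R and 0.61 in UACC62P on the log2 scale. PCDH1 had 45.2 and 29.6 CPM at 6 h and 49.6 and 30.3 CPM at 24 h in UACC62R, against 24.7 and 14.9 CPM at 0 h (1.01 ± 0.27 at 24 h, adjusted p = 0.0202). In UACC62P it had 35.0 and 34.2 CPM at 6 h and 25.8 and 22.7 CPM at 24 h, against 11.8 and 9.08 CPM at 0 h (1.73 ± 0.28 at 6 h and 1.21 ± 0.28 at 24 h). PCDH7 was lower in UACC62P at 6 h (-0.84 ± 0.16) and 24 h (-0.89 ± 0.16).

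The genes around the clusters on chromosome 5 were read the same way. Of 21 tested, 10 were higher and 4 lower in UACC62R at 0 h (66.7% called, median log2 fold change 0.19). At 24 h against 0 h, 3 were higher and 2 lower in UACC62R (23.8%), and 2 were higher and 0 lower in UACC62P (9.52%). PCDH1 and PCDH12 stand both in this list and in that of the non-clustered protocadherins, so the shares of these lists are not separate. TAF7, a subunit of the general factor TFIID whose gene lies between the beta and gamma clusters, had 122 and 139 CPM in UACC62R and 127 and 142 CPM in UACC62P at 0 h (-0.04 ± 0.11) and was not called in any comparison. DIAPH1, a formin of actin assembly encoded beyond the gamma cluster, had 282 and 293 CPM in UACC62R and 226 and 204 CPM in UACC62P at 0 h (0.42 ± 0.08, adjusted p = 0.000303), and at 24 h it was lower than at 0 h in UACC62R (-0.30 ± 0.08, adjusted p = 0.0145).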

How the data were processed

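The authors deposited 1 table of raw read counts per library, 63677 Ensembl gene IDs and 5 summary lines, with no normalization; per the submitters' processing notes the tools named include Trimmomatic 0.33, HISAT2 2.1.0 and HTSeq 0.6.1, with build hg19. Per the labels' protocols the libraries were stranded and read as single 50-base reads. The strand and overlap settings of the counting are not given in the sources used here. Reads aligned to more than 1 place (18.6 to 22.0%) and reads in more than 1 gene (5.99 to 6.81% of uniquely aligned ones) were not counted for a gene. Ensembl IDs were matched to symbols through a name table; own-exon lengths came from GENCODE annotation of another build, and no coordinate of it was used.

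Groups and replicate numbers came from the labels. Levels are CPM scaled by TMM over 15 libraries. The 20280 genes kept by filterByExpr (52 of the 53 members) entered a single edgeR 4.0.16 model (R 4.3.3) holding a term per group, which left 7 residual degrees of freedom; contrasts were read by the quasi-likelihood F test, and calls needed a p under 0.05 after Benjamini-Hochberg adjustment across these genes. UACC62P at 2 h has 1 library, assumed to vary like the other groups. SEs were derived from each log2 fold change and the root of its F. The fit was also run on simulated counts drawn independently for each library, which does not cover libraries that deviate together. Same-numbered libraries deviated together in 21 of 21 pairs of groups (r = 0.17 to 0.72 over 8273 genes, across genes). The numbers may thus pair the libraries, a reading of the data that no label states. The main model does not hold this pairing, which entered only as the replicate block (common dispersion 0.00425, against 0.00985 without it). Alternatives were 16 libraries, DESeq2 size factors, library size alone, a minimum of 20 reads, the DESeq2 1.42.0 Wald test, the replicate block, and each library left out.

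Named members were the called ones, up to 10 each way per comparison by smallest p. Added were the 3 most abundant per cluster and line, and PCDHA7, PCDHGC3, PCDHAC1 and PCDHAC2. From each gene list up to 4 called genes each way by size were named, plus CTCF, RAD21, SMCHD1, TAF7 and DIAPH1. The values of the named members are printed in part only. Between the lines at 0 h, no log2 fold change is printed for PCDHB17P, PCDHAC2, PCDHGA12, PCDHB13 and PCDHB10, nor for PCDHB6 with all 15 libraries. Of these, only PCDHB17P kept its call with every library left out in turn. Few values are printed between the lines at 6 h and 24 h. PCDHA4, PCDHA5 and PCDHA10 in CCG-222740 were chosen after their values were seen. The members and lists were chosen with earlier results of these data known.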

Additional observations from a re-analysis of the deposited data

Results flagged for a closer look

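The library labelled UACC62P 2 h replicate 1, which entered no comparison, had more than 2 times the CPM of every other UACC62P library for 5 members with at least 20 reads in it. The CPM given here were scaled over all 16 libraries and so differ slightly from those scaled over 15. PCDHB14 had 12.2 CPM there, where UACC62R had 10.5 to 13.6 CPM and the other UACC62P libraries at most 5.22 CPM. PCDHGA7 had 10.2 CPM, where UACC62R had 5.88 to 12.8 CPM and the other UACC62P libraries at most 4.79 CPM. PCDHGB6 had 4.83 CPM, where UACC62R had 2.23 to 5.25 CPM and the other UACC62P libraries at most 0.717 CPM. PCDHGB4 with 2.44 CPM lay above the UACC62R range of 0.638 to 2.17 CPM and the 0.731 CPM that the other UACC62P libraries reached at most. PCDHGC5 with 2.38 CPM lay just below the UACC62R range of 2.53 to 3.86 CPM and above the 0.512 CPM of the highest other UACC62P library. Of the 24 members called between the lines at 0 h, 23 were nearer to UACC62R than to UACC62P in this library. The library was left out for its resemblance to UACC62R, and these members were selected for differing between the lines. The values are therefore a description and no test, and shares over all genes were not computed.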

How the results depend on the processing

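Of 2346 refitted values of the named members, 2173 kept their direction and their side of the threshold, 130 lost the call, 16 gained one and 27 changed sign. The share kept is no measure of firmness. Of these values, 1676 come from leaving out 1 library, which in most cases belonged to a group not compared. Of the 112 values behind them, 73 were called with 15 libraries, and 32 lost the call with 16 libraries. With 16 libraries, 14 members were called between the lines at 0 h and 14 at 6 h, 0 in UACC62P at 6 h and at 24 h, 0 in UACC62R at 6 h, 1 in UACC62R at 24 h and 0 between 24 and 6 h in UACC62R. The DESeq2 Wald test called 6 members in UACC62P at 6 h, 1 between 24 and 6 h in UACC62P and 4 between 24 and 6 h in UACC62R. With the replicate block, 7 were called in UACC62P at 6 h, 9 in UACC62P at 24 h, 4 in UACC62R at 6 h, 1 between 24 and 6 h in UACC62P and 7 in UACC62R; the block changed no other count of calls by more than 1.5 times. The cause of these shifts was not tested. Leaving out each library in turn gave 18 to 25 calls between the lines at 0 h, 17 to 26 at 6 h and 16 to 22 at 24 h, 1 to 5 in UACC62P at 6 h, 1 to 6 in UACC62P at 24 h, 1 to 2 in UACC62R at 6 h, 4 to 10 in UACC62R at 24 h and 0 to 3 between 24 and 6 h in UACC62R.

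The values that changed sign were not called with 15 libraries. With 16 libraries, PCDHAC1 and PCDHAC2 in UACC62P at 2 h had log2 fold changes of 0.37 and 0.46, and with the replicate block PCDHAC2 had 0.07. The difference of response of PCDHGC3 at 24 h was -0.0045 with 16 libraries, -0.0017 with a minimum of 20 reads and -0.0034 with the replicate block. Leaving out single libraries changed further signs: PCDHGC3 ranged from -0.00079 to 0.26 between the lines at 24 h, from -0.15 to 0.03 in UACC62R at 2 h, from -0.22 to 0.05 and -0.21 to 0.29 between 24 and 6 h in UACC62R and UACC62P, and from -0.13 to 0.37 and -0.14 to 0.12 for the difference of response at 6 h and 24 h. PCDHAC1 ranged from -0.03 to 0.35 in UACC62P at 24 h. PCDHA7 and PCDHAC2 ranged from -0.36 to 0.38 and -0.08 to 0.11 between 24 and 6 h in UACC62P, and from -0.1 to 0.64 and -0.18 to 0.15 for the difference of response at 6 h. Low counts limit PCDHGB7, PCDHGA11, PCDHA9, PCDHB19P, PCDHGA8 and PCDHGA10, for which a difference may be undetectable at this depth.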
